A study of Mus musculus with 4 samples.

Results

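The LIM-only genes Lmo1, Lmo2, Lmo3 and Lmo4 are 4 of the 27999 genes in the table. They were chosen by their measured levels across 5 classes of retinal cell barcodes and by how seldom members appeared to be seen together in retinal ganglion cell (RGC) barcodes, so the levels below are a description and carry no test. LIM-only proteins are built of LIM zinc fingers, which bind other proteins and not DNA. They bridge or compete within complexes assembled on the adaptor LDB1, where LIM-homeodomain factors such as ISL1 and LHX1 and basic helix-loop-helix (bHLH) and GATA factors are the DNA-binding partners. LMO2 is best known from blood and endothelial development, where it joins TAL1 or LYL1 to GATA factors, and LMO4 is known to compete with LIM-homeodomain proteins for LDB1 in neurons.

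The data came from 4 retinas of C57BL/6 mice aged 3 months, which form 1 group with no treatment and no control. All carried the Brn3b reporter, in which GFP marks cells that use the locus of Pou4f2, a POU-domain factor of RGCs. Dissociated cells were sorted for GFP and put through the 10x Chromium 3' V2 kit, which counts unique molecular identifiers (UMIs) per gene and cell barcode. The matrix held 3237 barcodes with 31361961 UMIs, between 3198 and 53709 per barcode. All barcodes carried 1 suffix and none was repeated (0 shared barcodes), and nothing ties a barcode to a retina, so the retinas were 1 pooled sample with no replicates. Intervals are at 95% and cover counting error only. Levels are in CPM: the UMIs of a gene summed over a class, scaled to 1000000 UMIs of that class.

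Promoter windows are shown for Lmo1 and Lmo4, the members with the highest counts in horizontal and RGC barcodes, because these genes peak in the same class while their windows differ in composition. Each is the 250 bases upstream of the most upstream RefSeq start (GRCm38.p6), on the gene's strand, written 5' to 3'. Lmo1 lies at chr7:109175208-109175457, minus strand, and Lmo4 at chr3:144205256-144205505, minus strand, and neither window holds an annotated exon. Capitals mark the homeodomain core TAAT (also as its reverse complement), the E-box CANNTG that bHLH factors bind, and GATA, searched on both strands.
Lmo1: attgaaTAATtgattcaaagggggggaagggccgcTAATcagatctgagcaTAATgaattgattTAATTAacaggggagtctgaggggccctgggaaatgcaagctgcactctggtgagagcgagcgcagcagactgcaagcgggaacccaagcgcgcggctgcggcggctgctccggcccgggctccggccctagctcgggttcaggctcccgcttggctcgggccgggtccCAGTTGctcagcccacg
Lmo4: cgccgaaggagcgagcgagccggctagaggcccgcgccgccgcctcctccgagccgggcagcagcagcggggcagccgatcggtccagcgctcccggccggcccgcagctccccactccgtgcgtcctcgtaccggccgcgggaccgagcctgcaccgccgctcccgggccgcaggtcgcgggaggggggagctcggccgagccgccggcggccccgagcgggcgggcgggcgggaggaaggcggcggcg

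The Lmo1 window held 5 TAAT matches, of which a pair overlap as TAATTA, and 1 CANNTG match. At least as many TAAT matches were found in 5.85% of 27025 mouse windows of the same length. The homeodomain core occurred at all in 55.4% of windows, the E-box in 66.1% and the GATA motif in 54.1%, and the Lmo4 window held 0 matches to any of them. Its GC content was 82.4%, against 61.2% for Lmo1 and a median of 52% over all windows. The Lmo3 window held 2 TAAT and 2 CANNTG matches at a GC content of 50%, and Lmo2 was not in the promoter table. All 4 genes are protein coding (GRCm38): Lmo1 on chromosome 7, 109138572 to 109175207, Lmo2 on chromosome 2, 103957986 to 103981878, Lmo3 on chromosome 6, 138362918 to 138581968, and Lmo4 on chromosome 3, 144188530 to 144205220. No exon of another gene overlaps an exon of theirs.

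After filtering, 2636 barcodes were kept and 1964 met exactly 1 class rule. A horizontal barcode had 2 or more UMIs of Lhx1, the LIM-homeobox gene of horizontal cells, and 0 of Slc17a6. An RGC barcode had 1 or more UMIs of Slc17a6 (the vesicular glutamate transporter of RGCs), 3 or more of Rbpms and Slc17a6 together and at most 1 of Lhx1. Amacrine barcodes had 3 or more UMIs of Gad1 and Slc6a9 together, bipolar barcodes 2 or more of Trpm1 and 3 or more of Pcp2, and glial barcodes 3 or more each of Rlbp1 and Slc1a3. This gave 908 RGC, 403 horizontal, 338 bipolar, 204 glial and 111 amacrine barcodes, with median depths of 15799, 11150, 4366.5, 4654 and 5689 UMIs. The bipolar rule was met by 720 barcodes before filtering. Of the 338 bipolar barcodes, 328 had 2 or more UMIs of Prkca and 9 had none. Bipolar levels below are thus mostly those of barcodes with Prkca and may not hold for other bipolar cells. The labels call all cells retinal ganglion cells, and RGC barcodes were 34.4% of those kept. Leaving out the genes that the rules used, the other 8 RGC, 4 horizontal, 5 amacrine, 6 bipolar and 5 Müller glia genes of the fixed marker lists were each highest in their own class. The glial class also led on 4 of 4 astrocyte markers (summed level 216 CPM, against 1.33 to 15.8 in the other classes). The microglia list summed to 1026 CPM in bipolar barcodes and to 66.3 to 212 CPM in the other classes. Rod markers, from the most numerous retinal cell, summed to 598 to 2763 CPM in every class.

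Lmo1 was highest in horizontal barcodes and next in RGCs, with the other classes far below. All 403 horizontal barcodes held Lmo1, with a lowest value of 1 UMI, a median of 13 and a highest of 36, which summed to 1245 CPM (1213 to 1278; 5631 UMIs). RGC barcodes ran from 0 to 13 UMIs with a median of 2, 226 of 908 had none, and the class summed to 135 CPM (130 to 141; 2077 UMIs). The middle parts of these distributions did not meet, since the horizontal quartiles were 9 and 18 UMIs and the RGC quartiles 1 and 4, though their ranges overlapped. Bipolar, amacrine and glial barcodes had a median of 0 UMIs and summed to 46.9 CPM (37.2 to 58.3), 36.7 CPM (23.8 to 54.2) and 28.2 CPM (18.7 to 40.7). A single barcode held 22.5% of the bipolar UMIs and 32.0% of the amacrine UMIs of Lmo1.

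Horizontal barcodes were thus 9.20-fold above RGCs in Lmo1 (8.75 to 9.68), 26.6-fold above bipolar, 33.9-fold above amacrine and 44.2-fold above glial barcodes. RGCs were 2.89-fold above bipolar (2.31 to 3.66), 3.69-fold above amacrine (2.49 to 5.71) and 4.80-fold above glial barcodes (3.31 to 7.25). With mitochondrial reads held under 5%, which left 6 bipolar barcodes, the ratio to bipolar barcodes was 5.32 with an interval that spans 1 (0.953 to 210.1). The lower neighbours in this order were not apart beyond counting error, with ratios of 1.28 (0.806 to 2.09) for bipolar over amacrine and 1.30 (0.729 to 2.32) for amacrine over glial. With every barcode thinned to 3000 UMIs, 96.5% of horizontal and 33.7% of RGC barcodes held Lmo1 (100% and 75.1% unthinned), against 7.84% of glial and 6.31% of amacrine barcodes (11.8% and 16.2% unthinned). Relative to horizontal barcodes, the level of Lmo1 was 10.9% in RGCs, 3.76% in bipolar, 2.95% in amacrine and 2.26% in glial barcodes. Of other horizontal genes, Onecut1, Onecut2, Calb1 and Sept4 stood at 4.06% to 5.36% of their horizontal level in RGCs and at 0% to 9.59% in the other 3 classes. The RGC level of Lmo1 was above that range for RGCs, and its level in bipolar, amacrine and glial barcodes was inside theirs. Slc32a1 and Tfap2b, amacrine markers also at 173 and 941 CPM in horizontal barcodes, stood at 1.32% and 0.810% of those levels in RGCs. The range of these genes is thus no baseline for stray RNA, and the part of stray RNA in the Lmo1 levels was not tested.

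Lmo4 was also highest in horizontal barcodes, but amacrine barcodes came next and no class was near zero. Horizontal barcodes held 0 to 16 UMIs of Lmo4 with a median of 4, 17 of 403 had none, and the level was 376 CPM (358 to 394; 1698 UMIs). Amacrine barcodes held 0 to 8 UMIs and 170 CPM (141 to 204; 116 UMIs), and RGCs 0 to 18 UMIs with a median of 1 and 93.5 CPM (88.7 to 98.4; 1434 UMIs). Of the RGC barcodes, 412 had no Lmo4 UMI, and in UMIs the highest RGC barcode (18) was above the highest horizontal one (16). Glial barcodes stood at 94.6 CPM (76.5 to 116) and bipolar barcodes at 47.5 CPM (37.7 to 59.0).

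The Lmo4 level in horizontal barcodes was 2.20-fold that in amacrine (1.82 to 2.68), 4.02-fold that in RGC (3.74 to 4.31), 3.97-fold that in glial and 7.91-fold that in bipolar barcodes. Amacrine barcodes were 1.82-fold above RGCs (1.50 to 2.20) and 3.59-fold above bipolar barcodes (2.68 to 4.83), where 10.1% of genes with 100 or more UMIs were 2-fold or more higher in amacrine barcodes. Glial and RGC barcodes were not told apart, with a ratio of 1.01 (0.813 to 1.25). The amacrine-to-RGC ratio moved to 2.47 with mitochondrial reads held under 5% and to 1.46 with barcodes that met several rules kept. At 3000 UMIs, Lmo4 was detected in 67.2% of horizontal, 36.0% of amacrine, 27.0% of glial, 21.7% of RGC and 10.9% of bipolar barcodes (95.8%, 45.0%, 36.3%, 54.6% and 16.3% unthinned).

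Within the amacrine class, Lmo4 was higher in the GABAergic barcodes. The 88 barcodes with Gad1 and no Slc6a9, the glycine transporter of glycinergic amacrine cells, had 111 Lmo4 UMIs and 208 CPM (172 to 251). The 21 barcodes with Slc6a9 and no Gad1 had 3 UMIs and 24.1 CPM (4.98 to 70.6), so the ratio was 8.64 (2.88 to 42.5) at like median depths of 5644 and 5874 UMIs. Lmo1 gave a ratio of 1.23 (0.413 to 4.91) between the same barcodes, with 21 and 4 UMIs.

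Lmo2 was sparse in every class. The RGC class had 109 UMIs (7.11 CPM, 5.83 to 8.57), bipolar barcodes 10 UMIs (5.86 CPM), amacrine 3 UMIs (4.41 CPM), glial 3 UMIs (3.02 CPM) and horizontal barcodes 3 UMIs (0.663 CPM). RGCs exceeded horizontal barcodes by 10.7-fold (3.57 to 52.7), but by 2.29-fold with an interval that spans 1 (0.397 to 91.8) when mitochondrial reads were held under 5%, which left 34 horizontal barcodes. Their ratios to bipolar (1.21, 0.635 to 2.60), amacrine (1.61, 0.537 to 7.94) and glial barcodes (2.35, 0.784 to 11.6) were within counting error. At 3000 UMIs, 1.21% of RGC barcodes (0.606% to 2.16%; 5.40% unthinned) held Lmo2, as did 1.80% of amacrine, 1.18% of bipolar and 0.496% of horizontal barcodes (2.70%, 2.96% and 0.744% unthinned). Of 204 glial barcodes 0 did (1.47% unthinned), which allows a share of barcodes with a UMI of up to 1.47%, so at this depth the RGC share was not set apart from the others. The UMIs were uneven within the RGC class: 859 of 908 barcodes had 0, 35 had 1, and 9 barcodes with 3 or more held 64 UMIs, 58.7% of the total. The barcode with most Lmo2 held 19 UMIs and the next held 13.

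Those 9 barcodes, chosen after their Lmo2 values were seen, met the RGC rule with 50 UMIs of Slc17a6 and 52 of Rbpms. They stood at 50.2 CPM of Pou4f1 (24.1 to 92.3), against 468 CPM over all RGC barcodes, and at 115 CPM of Pou4f2 (73.2 to 173), against 84.5 CPM. They held 2 UMIs of Lmo4 (10.0 CPM, 1.22 to 36.3) and 18 of Lmo1 (90.4 CPM, 53.6 to 143). Lyl1, a bHLH partner of LMO2 in blood, had 0 UMIs in them, and Tal1 had 1.

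Lmo3 was at or near zero throughout. It had 0 UMIs in 908 RGC barcodes, which allows a share of barcodes with a UMI of up to 0.330%, and 0 in 338 bipolar barcodes, which allows up to 0.888%. These limits bound detection, not the share of cells that use the gene. Horizontal barcodes had 1 UMI, glial barcodes 3 in 2 barcodes, and amacrine barcodes 6, all in 1 barcode. The amacrine level of 8.82 CPM rests on that barcode alone.

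Counted over classes, Lmo1 and Lmo4 were 2-fold or more lower in RGC than in horizontal barcodes, which held for 8.83% of genes measured at 100 UMIs or more in the classes combined. Lmo1 and Lmo4 were also 2-fold or more higher in horizontal than in amacrine, bipolar and glial barcodes, where 10.9%, 16.4% and 27.1% of genes were. Lmo1 was 2-fold or more higher in RGC than in amacrine, bipolar and glial barcodes (13.3%, 24.6% and 30.7% of genes). Where a class had fewer than 100 UMIs of Lmo1 or Lmo4, the minimum was passed through the other class, and nothing is read from the count. Lmo2 reached 100 UMIs only through the RGC class and Lmo3 never did, so neither is counted. The plot of levels by class shows Lmo2 lowest in horizontal barcodes, on 3 UMIs there. Besides RGCs, bipolar barcodes were above horizontal ones beyond counting error (8.83-fold, 2.27 to 49.9). The ratios of amacrine (6.64, 0.890 to 49.6) and glial barcodes (4.55, 0.610 to 34.0) to horizontal ones spanned 1.

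**Figure D1:**
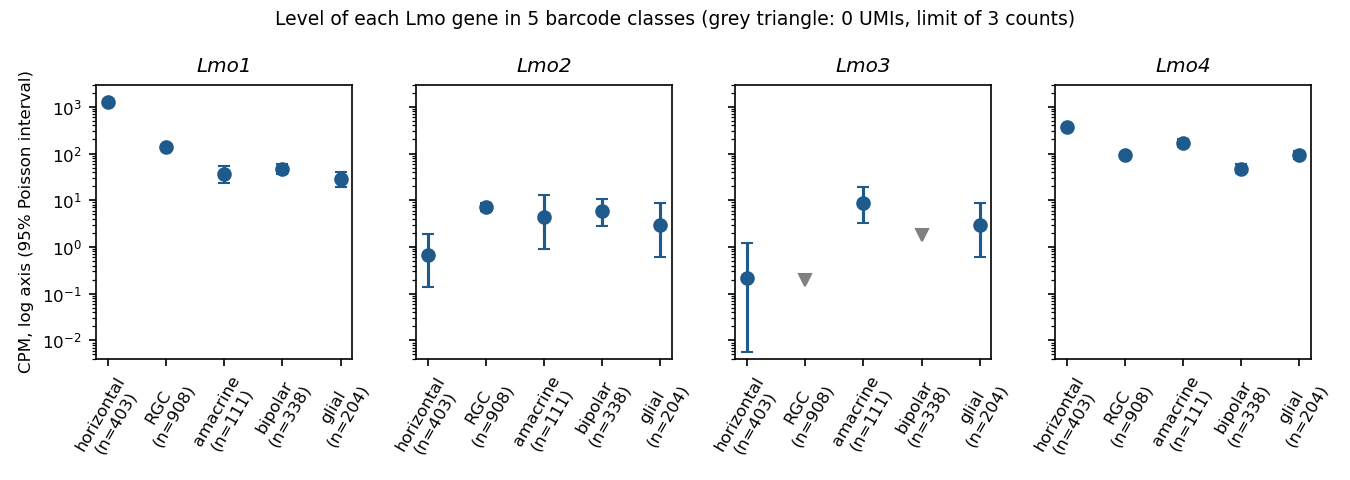
Level of each Lmo gene (CPM, log axis) in the 5 barcode classes, with n the number of barcodes; points are summed levels and bars 95% Poisson intervals for counting error, and grey triangles mark 0 UMIs at the limit of 3 counts. Lmo1 and Lmo4 are highest in horizontal barcodes (1245 and 376 CPM), where Lmo2 is at 0.663 CPM.

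**Figure D2:**
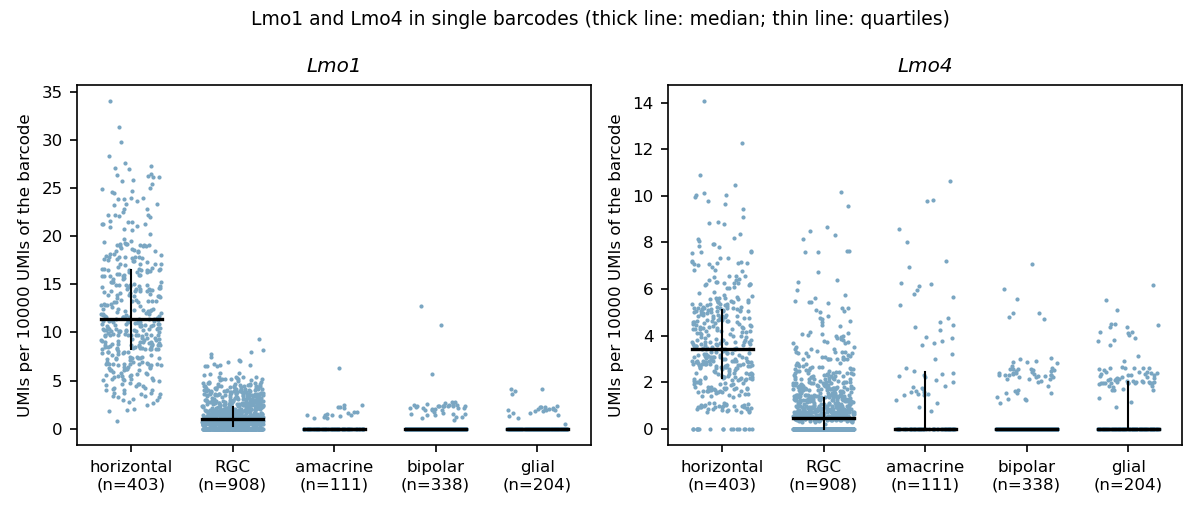
Lmo1 and Lmo4 in each barcode (UMIs per 10000 UMIs of that barcode) by class; the thick line is the median and the thin line runs between the quartiles. Horizontal barcodes have medians of 11.4 for Lmo1 and 3.44 for Lmo4, and RGC barcodes of 0.989 and 0.441.

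Levels on either side of the class thresholds were alike for horizontal barcodes. For RGCs the summed levels differed, but the set just outside that rule may hold other cells. Lmo1 stood at 1198 CPM in horizontal barcodes with 2 or 3 Lhx1 UMIs, at 1287 CPM in those with more, and at 1222 CPM in 55 barcodes just outside the rule with 1 Lhx1 UMI. Lmo4 stood at 372, 379 and 337 CPM in the same sets. RGC barcodes with a Rbpms and Slc17a6 sum of 3 or 4 had 144 CPM of Lmo1 and 44.0 CPM of Lmo4, and those with a larger sum 135 and 95.4 CPM. The 37 barcodes just outside, with a sum of 2, had 692 and 216 CPM. They were taken without a limit on Lhx1, so barcodes with 2 or more Lhx1 UMIs can be among them. Their Lmo1 UMIs had quartiles of 0 and 9 and a maximum of 42, against an RGC maximum of 13. Which cells they are was not tested.

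The levels of several assembly partners of LIM-only proteins differed between classes. Others varied less: Rlim ranged from 14.4 to 20.6 CPM, Deaf1 from 29.2 to 49.8 CPM and Ssbp3 from 66.6 to 121 CPM. Rbbp8, which binds LMO4, was at no more than 3.98 CPM in any class. It had 0 UMIs in amacrine and 1 in bipolar barcodes, too few to read a difference from. Ldb1, the common adaptor, ranged from 19.0 CPM in RGCs to 42.6 CPM in amacrine barcodes. Its relative Ldb2 was at 155 CPM in bipolar and 24.1 CPM in RGC barcodes but had 3 UMIs (0.663 CPM) in horizontal barcodes, the class with most Lmo1 and Lmo4. Ssbp2, a single-stranded DNA-binding protein that stabilises LDB complexes, ranged from 70.5 CPM in RGC to 290 CPM in glial barcodes. Bex2, which binds LMO2, was at 2537 CPM in horizontal and 80.5 CPM in glial barcodes.

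The LIM-homeobox genes differed in the class where they were highest. Isl1 was at 970 CPM in bipolar and 164 CPM in RGC barcodes, Isl2 at 65.5 CPM in RGCs and at most 5.03 CPM elsewhere, Lhx2 at 261 CPM in glial, Lhx9 at 79.3 CPM in amacrine and Lhx4 at 55.1 CPM in bipolar barcodes. Lhx1, which defined horizontal barcodes, is no result. The blood partners were near zero in all 5 classes: Tal1, Gata1, Gata2 and Gata3 at no more than 0.261 CPM and Lyl1 at no more than 4.41 CPM. The ubiquitous E proteins Tcf4 and Tcf12, bHLH partners in neurons, ranged from 42.7 CPM in horizontal to 390 CPM in glial barcodes and from 16.2 CPM in RGC to 53.3 CPM in glial barcodes.

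Lmo1 and Lmo4 lay together in nearly every horizontal barcode and in a minority of RGC barcodes. Barcodes were thinned to 10000 UMIs for this, which left 288 horizontal and 809 RGC barcodes, with 115 and 99 shallower ones left out. Of the horizontal barcodes, 274 (95.1%, 92.0% to 97.3%) held Lmo1 and Lmo4, 10 Lmo1 alone, 1 Lmo4 alone, and 3 held Lmo1 and Lmo4 with Lmo2 or Lmo3. Of the RGC barcodes, 501 (61.9%) held Lmo1, 355 (43.9%) Lmo4, 29 (3.58%) Lmo2 and 0 Lmo3. By combination, 250 RGC barcodes (30.9%) held Lmo1 alone, 242 (29.9%) Lmo1 and Lmo4, 106 (13.1%) Lmo4 alone, 16 (1.98%) Lmo2 alone and 182 (22.5%) none. Lmo2 came with Lmo1 in 6 more barcodes, with Lmo4 in 4 and with Lmo1 and Lmo4 in 3.

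Lmo1 and Lmo4 did not exclude each other in RGCs. They were found together, with or without Lmo2, in 245 barcodes against 219.9 under independence, a ratio of 1.11 (0.998 to 1.24). Intervals of these ratios, here and for the pairs below, are of the joint share with the expected number held fixed. They do not measure departure from independence. Lmo4 was seen in 48.9% of barcodes with Lmo1 (44.4% to 53.4%) and 35.7% of those without (30.4% to 41.3%). At 2 or more UMIs of each, the ratio was 1.22 (0.975 to 1.51). Spread within the class, as the variance over the mean at 10000 UMIs, was 2.00 for Lmo1, 2.60 for Lmo4 and 1.85 for Lmo2, above the 1 of pure counting.

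Lmo2 and Lmo4 were seen together in 7 barcodes against 12.7 under independence, a ratio of 0.550 (0.222 to 1.13). Departure from independence was not tested. Lmo4 was seen in 24.1% of barcodes with Lmo2 (10.3% to 43.5%) and 44.6% of those without (41.1% to 48.2%). No barcode held 2 or more UMIs of each, against 1.32 under independence. Lmo1 and Lmo2 were together in 9 barcodes against 18.0, a ratio of 0.501 (0.230 to 0.947), but this did not hold in other draws. With the thinning repeated under other random seeds it was 0.930 (18 barcodes) and 0.739 (15 barcodes), with no thinning 0.951 (35 barcodes), and at 6000 and 15000 UMIs 1.05 and 1.03. Only 6 of the 29 Lmo2 barcodes held 2 or more UMIs of it at this depth, so most of these detections are of 1 UMI.

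**Figure D3:**
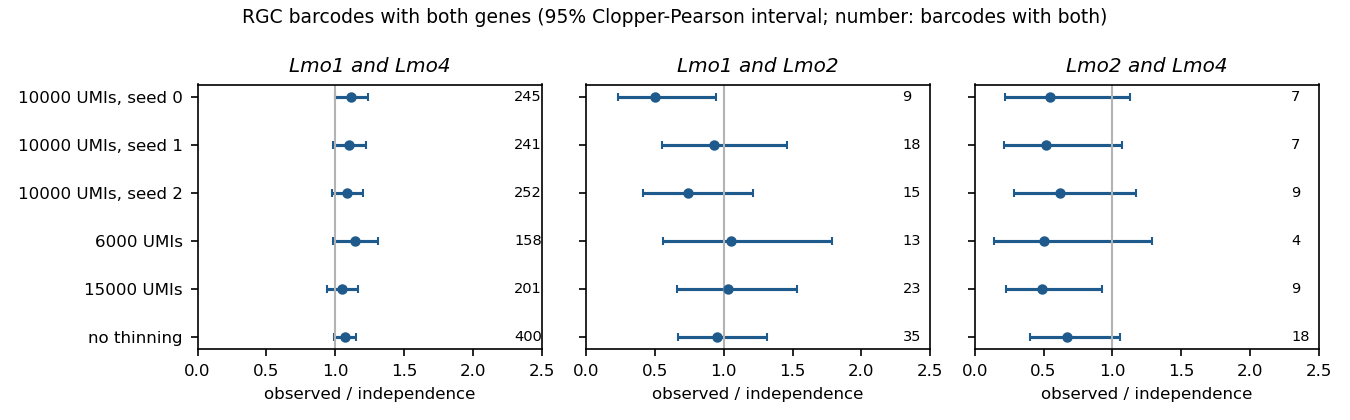
Ratio of RGC barcodes with both genes to the number under independence (linear axis) for 3 pairs, under 6 thinning settings. Bars are 95% Clopper-Pearson intervals of the joint share with the expected number held fixed, and numbers are the barcodes with both. Lmo1 with Lmo4 stays between 1.05 and 1.14, Lmo2 with Lmo4 below 1, and Lmo1 with Lmo2 moves from 0.501 to 1.05.

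Lmo4 differed between RGC types. RGC barcodes were split by 21 genes of known types, at the minimum UMI count set for each gene against 0 UMIs in the thinned barcode. Lmo4 was at 283 CPM in 73 barcodes with Foxp2, a forkhead factor of the F-RGC types, and at 70.0 CPM in 704 without, a ratio of 4.05 (3.56 to 4.59). It was at 112 CPM in 621 barcodes with Pou4f1, the POU factor of most RGCs, and at 20.6 CPM in 114 without, a ratio of 5.44 (4.01 to 7.55) that was 2.42 when thinned to 6000 UMIs. The ratios for Pvalb, a calcium-binding protein, and Isl2, a LIM-homeobox factor, were 2.94 (2.52 to 3.43) and 2.81 (2.47 to 3.19). Of genes with 100 or more UMIs, 0.863%, 2.12%, 1.13% and 0.389% were 2-fold or more higher with Foxp2, Pou4f1, Pvalb and Isl2. Median depths differed for Pvalb (23158 UMIs with, 15505 without), and the part of this in the ratio was not tested.

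Lmo4 was low in intrinsically photosensitive RGCs (ipRGCs), the melanopsin cells. Its level was 13.7 CPM with Opn4 (melanopsin; 47 barcodes, 12 UMIs) against 102 CPM without, a ratio of 0.134 (0.0693 to 0.236). With Eomes and Tbx20, T-box factors of ipRGCs, the ratios were 0.153 (0.0836 to 0.258) and 0.0823 (0.0267 to 0.193). It was also low with Spp1, osteopontin of alpha RGCs (0.131, 0.0525 to 0.270), and with Neurod2, a bHLH factor of N-RGCs (0.364, 0.265 to 0.488). The Spp1 split, used for Lmo1 and Lmo2 below as well, had 20 barcodes with the gene, which held 7 Lmo4 UMIs. Median depths were 25648 UMIs with Spp1 and 16398 without, and the part of this in the ratios was not tested. With Pou4f2, the ratio was 0.569 (0.483 to 0.668), and with Cartpt, a peptide of direction-selective RGCs, it was 1.05 (0.871 to 1.27). The Cartpt ratio had no stable side of 1, at 0.647 (0.525 to 0.794) when thinned to 6000 UMIs and 1.39 (1.20 to 1.62) when 1 Cartpt UMI sufficed. With 1 UMI of the splitting gene as the minimum, the low ratios were nearer to 1, at 0.299 for Opn4, 0.255 for Eomes, 0.277 for Tbx20 and 0.457 for Spp1.

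Lmo1 was low with Opn4, Eomes, Tbx20 and Spp1 as well. Its ratio was 0.148 (0.0890 to 0.232) with Opn4, 0.376 (0.276 to 0.503) with Eomes, 0.386 (0.265 to 0.544) with Tbx20 and 0.208 (0.119 to 0.339) with Spp1. For Lmo1 and Lmo4 alike these 4 ratios were 2-fold or more lower, as for 6.5%, 4.97%, 7.17% and 8.9% of genes with Opn4, Eomes, Tbx20 and Spp1, and Lmo4 was also so with Neurod2, as were 3.49% of genes. At a minimum of 1 UMI the Lmo1 ratio was 0.544 (0.457 to 0.644) with Eomes, no longer 2-fold lower, 0.376 with Spp1 and 0.232 with Opn4. The Lmo1 ratio was highest with Ppp1r17, a phosphatase inhibitor (298 against 100 CPM; 2.98, 2.63 to 3.36), with Pou4f1 (2.44, 2.05 to 2.94) and with Sptssb, a subunit of serine palmitoyltransferase (2.19, 1.88 to 2.55), where 1.25%, 2.12% and 1.02% of genes were 2-fold or more higher. The Sptssb ratio was 1.43 (1.31 to 1.57) at a minimum of 1 UMI. With Neurod2 the Lmo1 ratio was 1.63 (1.42 to 1.87) where that of Lmo4 was 0.364, and with Pvalb it was 0.570 (0.486 to 0.664) where that of Lmo4 was 2.94. At a minimum of 1 Pvalb UMI the Lmo1 ratio was 0.926 with an interval that spans 1 (0.845 to 1.01).

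Lmo2 went the other way from Lmo4 with Pou4f1. It was at 3.26 CPM with Pou4f1 (36 UMIs) and at 19.2 CPM without (40 UMIs), a ratio of 0.170 (0.105 to 0.274), and at 0.0807 (0.0429 to 0.146) without the barcode that holds 19 of its UMIs. Its ratio was 0.119 (0.0455 to 0.262) with Cartpt, 0.0992 (0.0388 to 0.213) with Tusc5 and 0.155 (0.0414 to 0.410) with Isl2. No Lmo2 UMI was found in the barcodes with Foxp2, Neurod2 or Penk, with upper limits on the ratio of 0.416, 0.411 and 0.650, though at a minimum of 1 UMI the Neurod2 ratio was 0.562 (0.236 to 1.15). With Opn4, Eomes and Tbx20 it was 1.14 (0.445 to 2.44), 1.56 (0.650 to 3.24) and 1.66 (0.649 to 3.56), all spanning 1. With Spp1 the ratio was 8.30 (5.05 to 13.2) on 25 UMIs, of which 1 barcode held 19. Without it the ratio was 2.19 (0.780 to 5.01), and that for Pvalb went from 1.87 to 0.457.

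**Figure D4:**
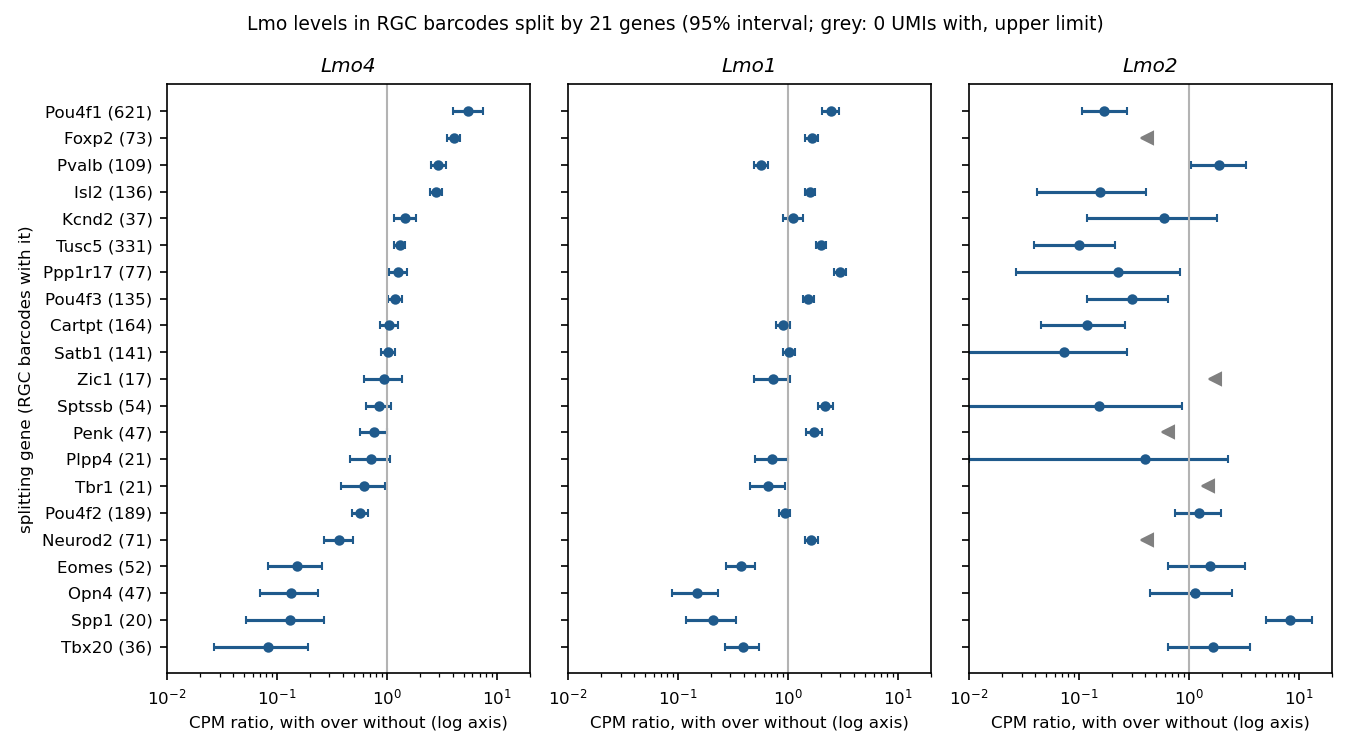
CPM ratio (log axis) of Lmo4, Lmo1 and Lmo2 between RGC barcodes with and without each of 21 splitting genes, ordered by Lmo4; bars are 95% intervals for counting error, the number of barcodes with the gene is in parentheses, and grey triangles are upper limits where no UMI was found. Lmo4 runs from 0.0823 with Tbx20 to 5.44 with Pou4f1, and Lmo2 is below 1 with Pou4f1.

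The converse division compared RGC barcodes with 2 or more UMIs of a member in the thinned barcode against those with none. Genes that split the RGCs above recur here, seen from the other side in the same barcodes. The 178 barcodes with Lmo4 were set against 454 without, at median depths of 15934 and 16378 UMIs. Of 8713 genes with 100 or more UMIs, 42 (0.482%) were 2-fold or more higher with Lmo4 and 132 (1.51%) lower. Foxp2 led, at 103 CPM with Lmo4 and 6.74 CPM without, 15.3-fold (11.5 to 20.7). Serpinb1b, a protease inhibitor (6.90-fold, 5.13 to 9.37), Coch, cochlin of the extracellular matrix (6.86-fold, 5.45 to 8.68), Lor (4.39-fold), Gas7 (3.67-fold) and Kcns3, a potassium channel subunit (3.55-fold), followed, with the predicted genes Gm17750 (8.35-fold) and Gm13373 (4.02-fold).

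The lowest genes with Lmo4 included 3 of the ipRGC list. Eomes had 3 UMIs with Lmo4 and 344 without, 44.1-fold lower (15.0 to 215), Tbx20 had 3 and 264 (33.8-fold, 11.4 to 165), and Opn4 10 and 769 (29.5-fold, 16.0 to 61.9). Prkcq, a protein kinase C, had 1 and 177 UMIs (68.0-fold, with an interval from 12.1), Spp1 10 and 1027 (39.5-fold), 1700011I03Rik 3 and 209 (26.8-fold), and Cd24a 0 and 220. A single barcode held 63.0% of the UMIs of Cdkn1c, which was 20.2-fold lower. Among listed genes, Isl2 was 3.04-fold higher (2.61 to 3.55), Tusc5 2.10-fold, Calca 3.29-fold, and Cartpt 4.37-fold, Irx3 4.16-fold, Neurod2 3.90-fold and Nhlh2 2.69-fold lower. Tusc5 did not pass 2-fold at 1 or more UMIs of Lmo4. The Cartpt level was lower with Lmo4 while the Lmo4 level with Cartpt was near that without, so the divisions differ for this gene.

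For Lmo1, 286 barcodes were set against 308, at median depths of 15261 and 17359 UMIs, and 44 of 8539 genes (0.515%) were 2-fold or more higher and 71 (0.831%) lower. Ppp1r17 was 5.35-fold higher (4.43 to 6.51) and Lypd1, a modulator of nicotinic receptors, 5.22-fold (4.21 to 6.52). Nnat (3.91-fold), Prlr, the prolactin receptor (3.80-fold), Neurod2 (3.28-fold), the PR-domain factor Prdm8 (3.27-fold) and 2600014E21Rik (3.18-fold) were also high. Spp1 was 57.4-fold lower (31.0 to 120), Cd24a 28.7-fold, Opn4 22.6-fold (14.9 to 35.8), A230065H16Rik 13.2-fold, 1700011I03Rik 11.2-fold, Prkcq 11.0-fold and Ctxn3 10.7-fold. Cdkn1c was 27.2-fold lower, with 57.8% of its UMIs in 1 barcode. Ppp1r17 and Opn4 were also genes by which RGCs were split above, and these are the same barcodes seen from the other side.

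By lists, all 5 measured ipRGC genes of 7 were 2-fold or more lower with Lmo1 and with Lmo4: Opn4, Eomes, Tbx20, the exchange factor Rasgrp1 and the peptide gene Adcyap1 (PACAP). Over all genes 0.831% were so with Lmo1 and 1.51% with Lmo4. Their median log2 ratio, with 0.5 counts added, was -2.21 for Lmo1 and -4.82 for Lmo4, against -0.02 and 0.01 over all genes. At 1 or more UMIs of the member 4 of the 5 passed with each, all but Adcyap1, and the medians were -1.25 and -2.27. Opn4, Eomes and Tbx20 had also split these RGC barcodes above, so the count in part restates those splits. At 2 or more UMIs of the member, all but Adcyap1 with Lmo1 passed the minimum count only through the barcodes without the member. Nothing is thus read from the count of 5 or its medians. At 1 or more UMIs of Lmo1, Opn4, Eomes and Tbx20 had 222, 142 and 113 UMIs with it, above the minimum, and Rasgrp1 had 77, below it. Of the 8 measured LIM binding partners of 9, Ldb2 was higher with Lmo1 (2.41-fold, 1.86 to 3.15), where 0.515% of all genes were, and 0 passed 2-fold with Lmo4. At 1 or more UMIs of Lmo1, 0 of the 8 passed. Of 6 measured bHLH and GATA genes of 20, Neurod2 was higher and Nhlh2 lower with Lmo1, and both were lower with Lmo4. Of 2 measured LIM-homeobox genes of 12, Isl2 was 2-fold higher with Lmo4 and neither with Lmo1. Of 3 POU4F genes, Pou4f3 was 2.24-fold higher with Lmo1, but 0 passed at 1 or more UMIs, and none passed 2-fold with Lmo4.

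Of the F-RGC, N-RGC and alpha lists, only the N-RGC list held a gene called in opposite directions with Lmo1 and Lmo4. With Lmo1, Foxp2 (2.15-fold) and Irx4 (2.51-fold) of 5 measured F-RGC genes were higher, against 0.515% of all genes, but at 1 or more UMIs of Lmo1 0 of 6 were. With Lmo4 Foxp2 was higher and Irx3 lower. Of the N-RGC genes, Neurod2 was higher with Lmo1 and lower with Lmo4. Of 3 measured alpha genes of 6, Spp1 and Chrna4, a nicotinic receptor subunit, were lower with Lmo1, as were 0.831% of all genes. Spp1 was also lower with Lmo4, as were 1.51%. Both alpha genes passed the minimum through the barcodes without the member, so nothing is read from the count.

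The Lmo2 division rests on 6 barcodes with 2 or more UMIs against 780 without, at median depths of 22006 and 16492 UMIs. Of 9284 genes, 723 (7.79%) were 2-fold or more higher and 1496 (16.1%) lower. The 6 barcodes held 156718 UMIs against 14030866 in the 780, so genes near the minimum count were called on few UMIs. Nhlh2 was called higher on 5 UMIs against 149 (3.01-fold, 0.962 to 7.17). Tcf12 was called lower on 1 UMI against 231 (2.58-fold, 0.458 to 102). Both intervals span 1, and nothing is read from the numbers of genes called. Anxa11 (9.95-fold, 4.62 to 19.2), the cannabinoid receptor gene Cnr1 (8.89-fold, 5.75 to 13.2), Plekhd1 (7.73-fold) and Elovl5, a fatty acid elongase (7.18-fold), were the highest with Spp1 (8.41-fold), which was seen in 1 of the 9 barcodes rich in Lmo2. Ero1lb, Gabrg1 and Lrrc55 were 6.45-fold to 6.53-fold higher on 7 to 12 UMIs. Tusc5 had 0 UMIs against 4599 and was at least 17.1-fold lower against 3 counts, Rprm at least 5.89-fold, Crhbp 5.73-fold, Zmat4 5.15-fold, Meis2 5.05-fold, Pou4f3 3.55-fold, Opn4 3.04-fold and Penk 2.82-fold. At 1 or more Lmo2 UMIs 0 of the 5 measured ipRGC genes were 2-fold lower and their median log2 ratio was 0.63, so the Opn4 value holds for these 6 barcodes only. Cartpt, with 9 UMIs against 22417, was 27.8-fold lower (14.6 to 60.8), and Pou4f1 8.12-fold (4.27 to 17.8).

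Over the 908 RGC barcodes, the genes whose log levels most resembled those of a member were ranked by Pearson's r among 9600 genes, all from the same barcodes and so sharing their depth. Ppp1r17 (0.42), Pou4f1 (0.39), Tusc5 (0.37) and Rgs10 (0.36) were among the most like Lmo1, and Igf1 (-0.39), Pcp4 (-0.38) and Aldoc (-0.35) least. Foxp2 (0.46), Isl2 (0.40), Kcnip4 (0.37), Pvalb (0.36) and Apbb2 (0.35) were most like Lmo4, and Irx6 (-0.35), Pcdh9 (-0.30) and Irx5 (-0.29) least. For Lmo2 they were Cnr1 (0.29), Elovl5 (0.28), Bdnf (0.28), Whrn (0.27) and Irx3 (0.26), and Pou4f1 (-0.25), Eif3f (-0.23) and H2afz (-0.22). Between members r was 0.10 for Lmo1 with Lmo4, -0.05 for Lmo1 with Lmo2 and -0.11 for Lmo2 with Lmo4.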

How the data were processed

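Single-cell RNA sequencing of GFP-sorted cells from 4 retinas was deposited as counts: the authors' table holds whole numbers of UMIs per gene and barcode, not normalized, per the values and the labels. Cell Ranger (no version), Seurat 2.2 and the build mm10 are named in the submitters' processing notes. The settings, and the rule for calling barcodes, were not given in the sources used here. All 4 members and the lists were chosen with earlier results of these data known.

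Barcodes with 500 or more genes and under 10% mitochondrial UMIs were kept (538 of 3237 removed). Scrublet, in scanpy 1.11.5, called 63 of 2699 doublets (2.33%), which were removed, leaving 2636. Of these, 648 met no class rule and 24 several, and both kinds were left out of the classes. Counts were summed per class and scaled to CPM. Poisson, conditional and Clopper-Pearson intervals are exact, at 95%, and shares of 0 use a limit of 3 counts. Shares were taken after thinning without replacement to 3000 UMIs, or 10000 within RGCs (seed 0). No test or p-value was possible in 1 pooled sample. "2-fold" counts used genes with 100 or more UMIs over both groups.

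Genes were named by a rule: per member, the 8 highest and 8 lowest ratios among such genes, mitochondrial and ribosomal protein genes aside, list members at 2-fold or more, and the 5 highest and 3 lowest correlations of log2(1 + UMIs per 10000). A gene with over 20% of its UMIs in 1 barcode is said to be so. Not every list member past 2-fold is printed, and some genes that the rule names are not reported here. Promoters came from RefSeq GRCm38.p6 and loci from the GRCm38 annotation. Ratio intervals were tested on simulated Poisson counts, the model that they assume. That check could not show how they hold for these data, where counts spread more than Poisson counts do. Scripts ran in Python 3.11.15 with scipy 1.17.1, numpy 2.4.6, matplotlib 3.10.9 and pandas 2.3.3. The alternatives tried changed the barcode and doublet filters, the class rules, the thinning depth, the detection and marker minimums and the count filter.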

Additional observations from a re-analysis of the deposited data

Results flagged for a closer look

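The 648 barcodes that met no class rule enter no class comparison above. They held 560 CPM of Lmo1 (538 to 584), 178 CPM of Lmo4 (166 to 191) and 38.2 CPM of Lmo2 (32.5 to 44.6). The horizontal marker list summed to 3529 CPM in them and the microglia list to 5342 CPM. Of their 160 Lmo2 UMIs, 126 lay in 149 barcodes with 3 or more UMIs of the microglia genes C1qa and C1qb. The 55 barcodes with 1 Lhx1 UMI and no Slc17a6 held 656 of 2349 Lmo1 UMIs and 181 of 747 Lmo4 UMIs. Which cells hold the remaining UMIs was not tested.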

How the results depend on the processing

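No paired analysis was possible because nothing ties a barcode to a retina, and for the same reason no retina could be left out in turn. Of the main values under alternatives, 63 were kept (ratios inside the main value's own 95% interval, counts within 1.5 times), 23 moved and 2 reversed. The Lmo1 ratio of horizontal to RGC barcodes was 9.84 with class minimums doubled and 8.47 as a mean over barcodes. The Lmo4 ratio of amacrine to RGC barcodes was 2.47 at a mitochondrial maximum of 5% and 1.46 with barcodes meeting several rules kept. The Lmo2 ratio of RGC to horizontal barcodes was 2.29 at 5%, which left 34 horizontal barcodes, and the Lmo2 ratio of RGC to bipolar barcodes had no value there (0 UMIs in 6 bipolar barcodes). Lmo1 with Lmo2 in RGCs reversed to 1.05 at 6000 UMIs and 1.03 at 15000, and was 0.951 unthinned. Lmo2 with Lmo4 was 0 at 2 UMIs. With a marker minimum of 1 UMI, the Lmo1 ratio with Ppp1r17 was 2.26 and the Lmo2 ratio with Spp1 3.92, which was 2.19 without the barcode richest in Lmo2. The Lmo4 ratio with Pou4f1 was 2.42 at 6000 UMIs. Genes 2-fold or more higher and lower numbered 19 and 41 for Lmo1, 191 and 454 for Lmo2 and 22 and 61 for Lmo4 at 1 or more UMIs of the member, and 1384 and 2014, 1676 and 7668, and 1213 and 2710 with no filter on low counts, which lets genes of a few UMIs in. Among other values, 164 were kept, 35 moved and 3 reversed: Lmo2 with Satb1 (2.40 at 6000 UMIs), Lmo2 with Pvalb (0.457 without the richest barcode) and Lmo4 with Penk (1.03 at a marker minimum of 1 UMI). The cause of the other changes was not tested. The thinning seeds and the removal of the richest barcode in the splits were chosen after seeing the data. Few UMIs limit what can be read for Lmo2 and Lmo3. Amacrine and glial barcodes had 3 UMIs of Lmo2 each, and RGC and bipolar barcodes had 0 of Lmo3.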

Other observations

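Outside the 5 classes, Lmo2 was found mainly with markers of other cells, in sets chosen after the data were seen. The 149 barcodes that met no rule and had 3 or more UMIs of C1qa and C1qb, complement genes of microglia, held 126 Lmo2 UMIs and 198 CPM (165 to 236), 27.9-fold the RGC level (21.4 to 36.4). Of them, 51.0% held a Lmo2 UMI. Lyl1 was at 207 CPM (174 to 246; 132 UMIs) in the same barcodes and at 0.521 CPM in RGCs, and Tal1 had 8 UMIs there. The 10 barcodes with 3 or more UMIs of the endothelial genes Cldn5 and Pecam1 held 20 Lmo2 UMIs (309 CPM, 189 to 477), 35.0% of them in 1 barcode, and 5 UMIs of Gata2, which had 0 in RGC, horizontal and bipolar barcodes.

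In the bipolar class, where the microglia list was highest, 5 of the 10 Lmo2 UMIs lay in the 17 barcodes with 3 or more C1qa and C1qb UMIs (39.9 CPM, against 3.16 CPM in the rest). In the RGC class, 7 of 109 Lmo2 UMIs lay in 43 such barcodes (6.68 CPM, against 7.14 CPM in the rest).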
